A study of Neogale vison with 6 samples.

Results

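The nuclear-encoded subunits of the oxidative phosphorylation (OXPHOS) machinery were followed in Mv1Lu cells under cholesterol depletion (CD). Members were chosen by gene symbol, as the genes named NDUFA, NDUFB, NDUFC, NDUFS or NDUFV with a number, COX4 to COX8, UQCR, ATP5 or SDHA to SDHD, with CYC1 and CYCS added. Of the 24526 genes in the count table, 46 matched. They comprised 22 subunits of complex I, 2 of complex II, 4 of complex III, 10 of complex IV, 7 of complex V and cytochrome c. NDUFA4 and its isoform NDUFA4L2 were placed with complex IV, to which NDUFA4 was found to belong.

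Mv1Lu is an epithelial line derived from the lung of the American mink. The data were 6 RNA-seq libraries of poly(A) mRNA, 3 from untreated cells (control) and 3 from cells under CD. For CD the cells spent 16 h in medium with 10% lipoprotein-deficient serum (LPDS) that held 50 μM of the statin lovastatin and 50 μM mevalonate, so the statin, the mevalonate and the serum cannot be told apart. All libraries came from 1 cell line, and nothing in the sources used here says that the replicates were separate cultures, so the p-values measure the spread between these libraries, which may be technical.

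The reads counted on genes numbered between 13473820 and 18633764 per library. Levels are given as CPM (counts scaled to the size of the library, with TMM factors). Genes were tested with the quasi-likelihood method of edgeR and called where the false discovery rate (FDR, Benjamini-Hochberg over 12148 tested genes) was below 0.05. CD replicate 3 stood apart from the other CD libraries in its unmapped reads (9.37% against 3.54% and 4.33%) and its multimapped reads (5.71% against 4.89% and 4.97%). Its share of reads that lay on no annotated feature was also higher (25.4% against 21.9% and 21.6%). Unmapped reads also differed among the controls (18.4%, 13.6% and 4.25%). The biological coefficient of variation of edgeR came to 0.213 in the CD libraries and 0.0852 in the controls. For 1 gene alone, the smallest two-sided p that exact permutation of 3 and 3 libraries allows is 0.1.

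The epithelial label was borne out in part by its markers. Keratins KRT7 and KRT19 were abundant in the control (6842 to 7366 CPM and 883 to 1011 CPM) and fell under CD, to between 1099 and 1411 CPM and between 379 and 533 CPM, whereas EPCAM did not exceed 0.287 CPM and CDH1 (E-cadherin) 0.432 CPM in any library. Of the 8 epithelial markers tested, 1 rose, 3 fell and 4 were not called, a share called close to the 47.7% of all tested genes. Their log2 fold changes ran from −2.50 to 3.55. VIM (vimentin), of mesenchymal cells, ranged from 3690 to 4788 CPM. Of the 7 fibroblast markers tested, 4 fell (22.9% of all tested genes did) and 3 were not called, with log2 fold changes down to −1.72 for COL3A1. Of the endothelial markers 2 could be tested, and both were called, where 47.7% of all tested genes were. TEK fell by 1.08 on the log2 scale, from 221, 206 and 218 CPM to 123, 107 and 74.6 CPM, and VWF, at most 0.165 CPM in the control and 1.66 CPM under CD, rose, whereas CDH5, KDR and PECAM1 had at most 0.307 CPM in any library. The surfactant genes SFTPB and SFTPC and the alveolar water channel AQP5 had 0 counts in all libraries. Of this list 2 genes were tested, of which 1 fell, where 22.9% of all tested genes did. SCGB1A1, a secretory protein of the airway, was the one that fell (1.21 to 1.59 CPM in the control, 0.430 to 0.859 CPM under CD). AGER was not called (log2 fold change −0.28). PTPRC (CD45), of leukocytes, had at most 0.0720 CPM, whereas the 2 immune markers tested, CD68 and CD14, both rose (24.8% of all tested genes did). CD68 was at 5.13 to 5.62 CPM in the control and at 16.9 to 22.4 CPM under CD, and CD14 at 0.0723 to 0.220 CPM and at 0.737 to 0.920 CPM. Of the muscle markers TNNT2 had 3.31 to 5.83 CPM whereas ACTA1, CKM, MYH2, MYH7 and MYL2 did not exceed 0.215 CPM. The part of these marker changes in the results below was not tested.

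Oxidative phosphorylation takes place in the inner mitochondrial membrane. Complex I oxidizes NADH and complex II oxidizes succinate, and both pass electrons through ubiquinone to complex III, from there by cytochrome c to complex IV, which reduces oxygen. Complexes I, III and IV pump protons and complex V, the ATP synthase, uses the gradient to make ATP. Most subunits are encoded in the nucleus and a few, of every complex but complex II, in mitochondrial DNA.

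Most subunits were not called under CD. Of the 46 members, 42 had enough counts to be tested, of which 5 rose, 6 fell and 31 were not called, that is, 26.2% were called where 47.7% of all tested genes were (24.8% higher and 22.9% lower). DESeq2 called the same 11 members in the same directions, where it called 46.7% of all tested genes (23.6% higher and 23.2% lower). In the edgeR test 14 members had an unadjusted p under 0.05, as did 54.7% of all tested genes. The majority not called did not hold without CD replicate 3. That fit called 5 members higher and 19 lower, beside 58.9% of all tested genes called. In bulk RNA, fewer cells with a transcript and less of it per cell cannot be told apart. The subunits that rose were NDUFV2 and NDUFA2 of complex I, UQCRFS1 of complex III, COX6B2 of complex IV and ATP5IF1 of complex V. Those that fell included NDUFV1, NDUFS3 and NDUFS7 of complex I, CYC1 of complex III and ATP5F1B of complex V. The 3 CD libraries lay above all control libraries for 7 members and below them for 8, against 29.5% and 28.6% of all tested genes (58.0% in either direction).

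The changes were small. The median absolute log2 fold change was 0.28 over the tested members and 0.47 over all tested genes, and 0.57 over the called members against 0.89 over all called genes. Of the 11 called members, 5 differed by 1.5-fold or more and 1, COX6B2, by 2-fold or more, whereas 42.3% of all called genes differed by at least 2-fold. At the median, the log2 fold change was 0.01 for the members and 0.06 for all tested genes. For 37 of the 42 members, the interval of 2 standard errors on either side of the log2 fold change lay within 2-fold in both directions. The median standard error was 0.16 over the members and 0.18 over all tested genes.

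**Figure D1:**
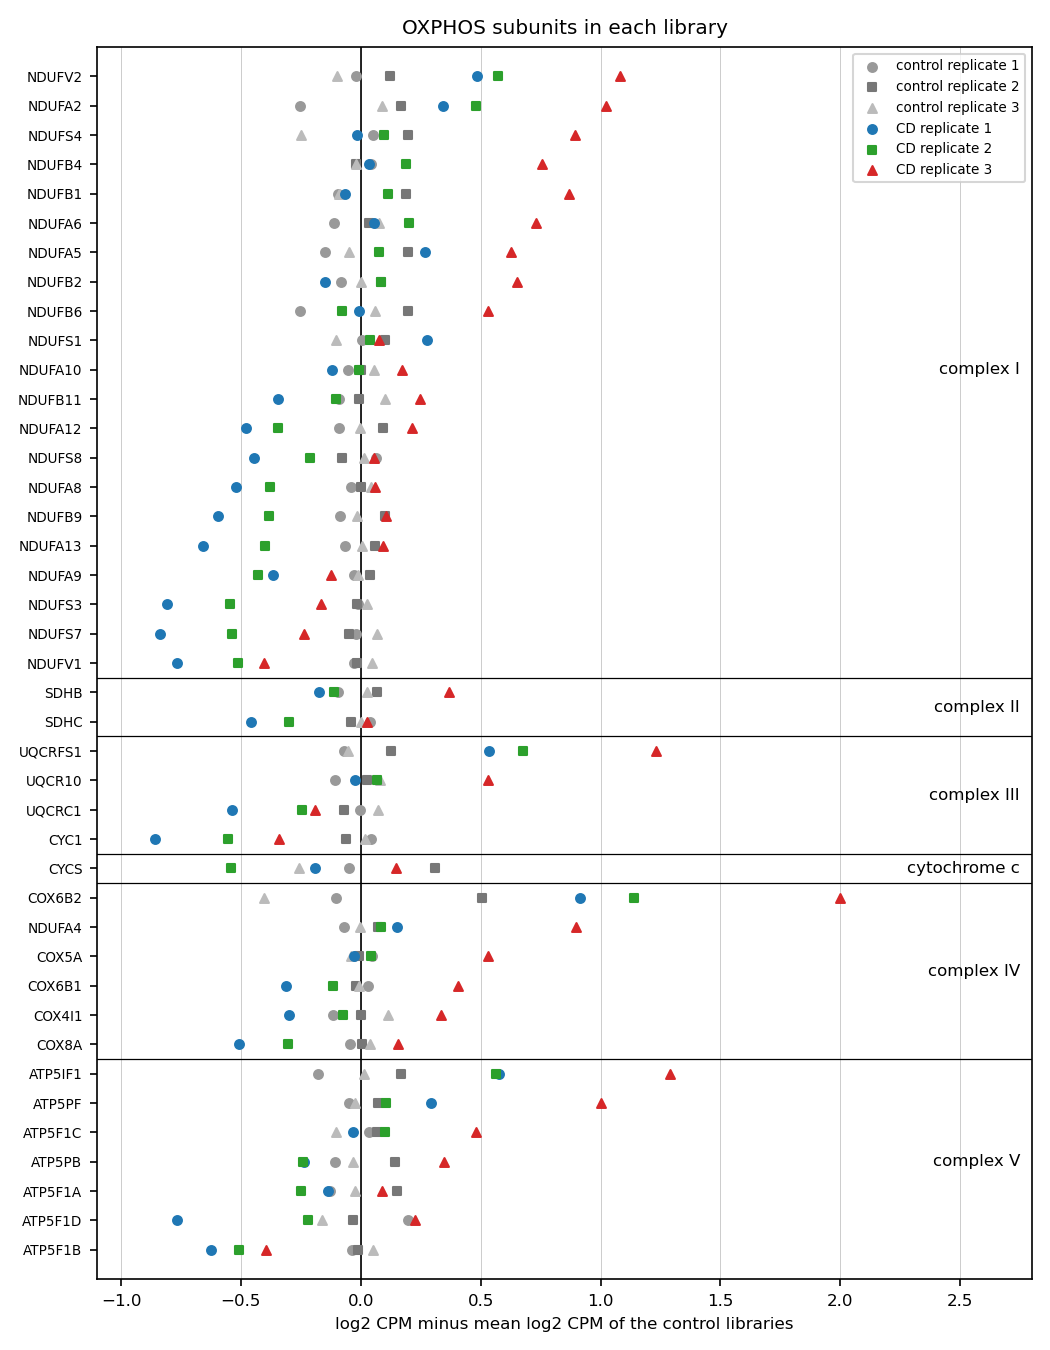
Tested subunits (1 of the 42 is not drawn), grouped by complex, with log2 CPM minus the mean log2 CPM of the 3 control libraries on the horizontal axis; grey points are control libraries and coloured points CD libraries. CD replicate 3 (red triangles) was the highest CD library for every subunit drawn but NDUFS1, and CD replicate 1 (blue circles) was the lowest for most.

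The CD libraries differed from each other in one direction across nearly all members. CD replicate 3 held the highest of the 3 CD values for 41 of the 42 tested members, where it did so for 40.1% of all tested genes, and it held the lowest for none. The exception was NDUFS1. CD replicate 1 was the lowest for 32 members and CD replicate 2 for 10. Relative to the control mean, the median member deviated by −0.18 in CD replicate 1, −0.11 in CD replicate 2 and 0.29 in CD replicate 3 on the log2 scale, whereas the median of all tested genes deviated by 0.07, 0.01 and 0.00. The median SD of log2 CPM was 0.32 among the CD libraries and 0.09 among the control libraries, and over all tested genes it was 0.24 and 0.13.

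The gap between CD replicate 3 and the mean of the other CD libraries was 0.52 at the median on the log2 scale, and it varied among the members. It was −0.08 for NDUFS1 and 0.97 for COX6B2, and also large for NDUFS4 (0.86), NDUFB1 (0.85), ATP5PF (0.80) and ATP5F1D (0.72). When the median deviation of the members was subtracted in each library, a step chosen after the values had been seen, the median SD among the CD libraries was 0.12 and that among the controls 0.08. At the median member, most of the spread between the CD libraries was thus shared, which restates that the members moved together. It was not so for every member. The SD among the CD libraries rose with this step for NDUFS1 (0.13 to 0.34) and ATP5F1B (0.11 to 0.16).

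The nuclear-encoded core of complex I held 4 of the 6 subunits that fell. Without CD replicate 3 it held 5 of the 19 lower calls, and without CD replicate 2 it held 2 of 4. These 7 subunits form the arm that projects into the matrix and carry the flavin and the iron-sulfur clusters along which electrons travel to ubiquinone. Of the 7, 4 fell, 1 rose and 2 were not called, beside 22.9% lower and 24.8% higher over all tested genes, and their median log2 fold change was −0.49. Their summed level was 1793, 1746 and 1795 CPM in the control libraries and 1163, 1386 and 1617 CPM in CD replicates 1, 2 and 3, so that all CD sums lay below all control sums.

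NDUFV1 binds the flavin that accepts electrons from NADH. Its level was 264, 267 and 279 CPM in control replicates 1, 2 and 3, and 158, 189 and 204 CPM in CD replicates 1, 2 and 3. All CD values lay below the lowest control value, and the log2 fold change was −0.55 (SE 0.12, FDR 0.00380). NDUFV2, its partner in the flavoprotein module and the holder of an iron-sulfur cluster, went the other way. NDUFV2 was at 83.0, 91.6 and 78.6 CPM in the control and at 118, 125 and 178 CPM under CD, where the libraries again did not overlap, with a log2 fold change of 0.74 (SE 0.16, FDR 0.00425). Both calls held in all 15 alternative settings that kept the FDR limit of 0.05 and the test against no change. In the stricter test of edgeR against a 1.5-fold change, COX6B2 was the 1 member called, where 20.9% of all tested genes were (10.7% higher and 10.2% lower). With the FDR limit set to 0.01, 3 members were higher and 3 lower, beside 16.5% and 16.8% of all tested genes (33.3% in all).

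NDUFS7 helps to line the site where ubiquinone is reduced, and NDUFS3 lies nearby. NDUFS7 was at 301, 296 and 320.1 CPM in the control libraries and at 171, 210.4 and 259 CPM in the CD libraries (log2 fold change −0.52, SE 0.15, FDR 0.0166). For NDUFS3 the control values were 121, 120.5 and 124 CPM, and the CD values were 69.3, 83.3 and 108 CPM (−0.49, SE 0.16, FDR 0.0269). In both genes the CD values lay below the controls and CD replicate 3 came closest to them. These calls were less firm than that of NDUFV1, since leaving out any 1 of the libraries but CD replicate 3 ended that of NDUFS3 (FDR 0.0586 to 0.0895). The call of NDUFS7 ended without control replicate 2 or 3 or CD replicate 2 (FDR 0.0512 to 0.0682).

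Other core subunits carry iron-sulfur clusters as well. NDUFS8 had 228, 207 and 220.5 CPM in the control and 160.2, 189 and 227 CPM under CD, where the highest CD value lay among the controls (−0.19, SE 0.14, FDR 0.283). NDUFS1, the largest of the core subunits, had 62.5, 66.8 and 58.0 CPM in the control and 75.6, 63.9 and 65.8 CPM under CD, with overlapping groups (0.13, SE 0.12, FDR 0.393). NDUFS1 was the 1 tested member in which CD replicate 1 was the highest CD library.

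The 15 accessory subunits of complex I, which surround the core and take part in its assembly and stability, had a median log2 fold change of 0.16. Of these, 1 rose and 14 were not called, where 47.7% of all tested genes were called (24.8% higher). With CD replicate 1 left out, 3 rose (25.2% of all tested genes) and the median was 0.26. With CD replicate 3 left out, 1 rose and 6 fell (29.5% and 29.4% over all tested genes), and the median was −0.09. Their summed level was 1807, 1980 and 1920 CPM in the control and 1577, 1758 and 2476 CPM in CD replicates 1, 2 and 3, so that the CD sums lay on either side of the controls.

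NDUFA2, a small accessory subunit of the NADH-oxidizing module, rose from 52.6, 70.5 and 66.7 CPM to 79.6, 87.7 and 128 CPM (0.64, SE 0.19, FDR 0.0188). The groups did not overlap, but the call was lost without control replicate 1 or 3 (FDR 0.0842 and 0.0546). NDUFS4, which stabilizes the same module, was at 41.6, 46.1 and 33.8 CPM in the control and at 39.7, 42.9 and 74.8 CPM under CD. Only its value in CD replicate 3 lay outside the control range (0.37, SE 0.23, FDR 0.214). NDUFB1, NDUFB4, NDUFB2 and NDUFA6 also had CD replicate 3 well above every control value, with log2 fold changes between 0.23 and 0.36 and FDR values between 0.112 and 0.322. NDUFA9, which sits near the ubiquinone site, had 97.8, 102 and 98.8 CPM in the control and 77.2, 73.9 and 91.3 CPM under CD, all lower, and missed the threshold (−0.30, SE 0.12, FDR 0.0583). NDUFA13, also known as GRIM-19, had 301, 328 and 315 CPM against 199, 238 and 335 CPM, where CD replicate 3 was above all controls and the others below (−0.29, SE 0.17, FDR 0.196).

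Complex II was represented by 2 of its 4 subunits. SDHB, the iron-sulfur subunit, was at 214, 239.9 and 233 CPM in the control and at 203, 211 and 295 CPM under CD (0.05, SE 0.15, FDR 0.822). SDHC, one of the membrane anchors, was at 363, 344 and 353 CPM and at 257, 287 and 359 CPM (−0.23, SE 0.14, FDR 0.186). In both genes CD replicates 1 and 2 lay below every control value, whereas CD replicate 3 lay above the controls for SDHB and among them for SDHC. Neither was called. SDHA and SDHD were not found by symbol and are not analysed here.

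Complex III held subunits that moved in opposite directions. UQCRFS1, the Rieske iron-sulfur protein, takes electrons from ubiquinol. It was at 246, 282 and 249 CPM in the control and at 375, 413 and 608 CPM under CD, with no overlap (0.84, SE 0.18, FDR 0.00306). CYC1, cytochrome c1, receives those electrons and hands them to cytochrome c. It was at 472, 439 and 464 CPM in the control and at 253, 312 and 362 CPM under CD, again with no overlap but in the lower direction (−0.57, SE 0.14, FDR 0.00738). Both calls held in all 15 alternative settings. UQCRC1, a core protein on the matrix side, had 649, 619.6 and 684 CPM in the control and 448, 549 and 570.5 CPM under CD, all lower, and missed the threshold (−0.32, SE 0.13, FDR 0.0619). UQCR10, a small subunit, had 102, 112 and 116 CPM against 108, 115 and 158 CPM (0.21, SE 0.15, FDR 0.284).

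CYCS, the mobile carrier cytochrome c, was at 16.0, 20.5 and 13.8 CPM in the control and at 14.5, 11.3 and 18.4 CPM under CD, where the groups overlapped (−0.19, SE 0.22, FDR 0.510).

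**Figure D2:**
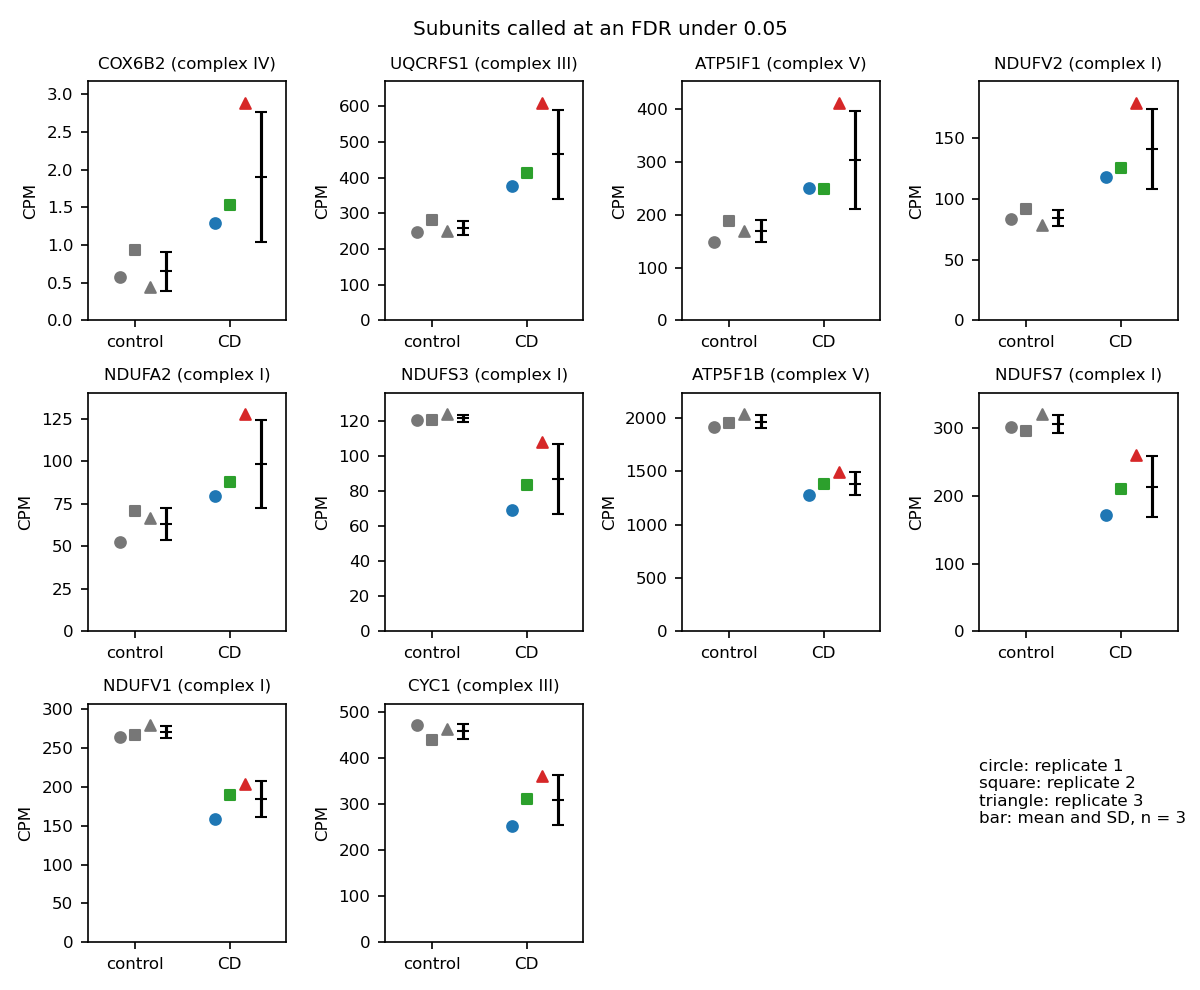
CPM in each library for 10 of the 11 subunits called at an FDR under 0.05, each on an axis that starts at 0; grey points are control libraries, coloured points CD libraries, the symbols mark the replicate number, and the bars give the mean and SD of 3 libraries. UQCRFS1 reached 375 to 608 CPM under CD against 246 to 282 CPM in the control, and ATP5F1B 1276 to 1494 CPM against 1917 to 2036 CPM.

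Of the 10 members of complex IV, 6 were tested, of which 1 rose and 5 were not called, where 47.7% of all tested genes were called (24.8% higher), and the median log2 fold change was 0.11. Without CD replicate 1, 2 were higher (25.2% of all tested genes), and without CD replicate 3, 1 was higher and 1 lower (29.5% and 29.4%). COX6B2, a form of subunit 6B known from testis, was the member that rose, and it was barely expressed. Its raw counts were 8, 13 and 8 in the control libraries and 21, 25 and 40 in the CD libraries, or 0.573, 0.940 and 0.441 CPM against 1.29, 1.53 and 2.88 CPM. The CD values lay above the controls (1.55, SE 0.41, FDR 0.0110), and the call ended without control replicate 3 (FDR 0.0607). COX6B1, the widely expressed form, was at 336, 324 and 327 CPM in the control and at 265, 303 and 436 CPM under CD, with a log2 fold change of 0.02 (SE 0.17, FDR 0.918).

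COX4I1, which takes part in the regulation of the complex, had 754, 816 and 883 CPM in the control and 663, 776 and 1029 CPM under CD (0.01, SE 0.16, FDR 0.972). COX5A had 271, 262 and 256 CPM against 258, 270.5 and 380.3 CPM (0.20, SE 0.15, FDR 0.292). COX8A had 319, 329 and 338 CPM against 231, 266 and 366 CPM (−0.19, SE 0.16, FDR 0.350). For NDUFA4 the control values were 166, 184 and 174 CPM and the CD values 194, 185 and 325 CPM. All its CD values lay above the controls, CD replicate 2 by less than 2 CPM, and it was not called (0.43, SE 0.20, FDR 0.102). In these 5 subunits the highest CD value, that of CD replicate 3, exceeded the highest control value, whereas CD replicate 1 was below the lowest control value for 3 of them.

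The 4 members without a test were isoforms of complex IV subunits with almost no reads. COX6A2, the form of heart and skeletal muscle, had between 3 and 8 counts per library. The gene with the symbol COX42, described in the count table as isoform 2 of subunit 4, had 0 to 5 counts, NDUFA4L2, the form induced by low oxygen, 0 to 2, and COX7B2 1 count in all 6 libraries together. These levels allow no comparison between the groups.

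In complex V, which turns the proton gradient into ATP, the catalytic subunit fell and the inhibitor rose. ATP5F1B, the beta subunit that carries the catalytic sites, was at 1917, 1949.7 and 2036 CPM in the control and at 1276, 1384 and 1494 CPM under CD. All CD values lay below the controls, with a log2 fold change of −0.51 (SE 0.12, FDR 0.00628). ATP5IF1, the protein that blocks the hydrolysis of ATP by the enzyme, was at 148, 189 and 169.6 CPM in the control and at 251, 249 and 411 CPM under CD. All CD values lay above the controls (0.84, SE 0.20, FDR 0.00556). Both calls held in all 15 alternative settings.

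The other subunits of complex V were not called. ATP5F1A, the alpha subunit that pairs with beta in the catalytic ring, had 648, 787 and 698 CPM in the control and 645, 596 and 754 CPM under CD, with overlapping groups (−0.10, SE 0.13, FDR 0.580). ATP5F1C, the gamma subunit of the rotating stalk, had 156, 159.8 and 142 CPM against 149, 163 and 213 CPM (0.20, SE 0.14, FDR 0.279). ATP5F1D, the delta subunit of that stalk, varied within both groups, with 724, 618 and 564.5 CPM in the control and 371, 543 and 739.8 CPM under CD (−0.20, SE 0.22, FDR 0.467). Of the peripheral stalk, ATP5PF (subunit F6) had 58.6, 63.7 and 59.6 CPM against 74.2, 65.2 and 121 CPM, all higher under CD (0.52, SE 0.21, FDR 0.0637), and ATP5PB (subunit b) had 149, 177 and 157 CPM against 136, 135.6 and 204 CPM (−0.02, SE 0.17, FDR 0.927).

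The number of subunits called lower depended on CD replicate 3. Without this library 5 members were higher and 19 lower, where 29.5% and 29.4% of all tested genes were (58.9% in all), and the median log2 fold change of the members was −0.23. The median was −0.18 for complex I, −0.30 for complex II, −0.22 for complex III, −0.12 for complex IV and −0.23 for complex V. All 11 calls made with 6 libraries were kept in the same direction without CD replicate 3, and the 13 added calls were in the lower direction. The added subunits were NDUFS8, NDUFA8, NDUFA9, NDUFA12, NDUFA13, NDUFB9 and NDUFB11 of complex I, SDHC, UQCRC1, COX8A, ATP5PB and ATP5F1D, and CYCS. Their log2 fold changes without this library lay between −0.26 and −0.56.

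When libraries were weighted by their quality in limma-voom, CD replicate 3 received a weight of 0.227, the lowest of the 6, and 5 members were higher and 17 lower (31.7% and 29.5% of all tested genes, 61.2% in all). Without CD replicate 1 the numbers were 9 higher and 5 lower (25.2% and 23.6% of all tested genes, 48.8% in all). Without CD replicate 2 they were 6 and 4 (20.4% and 20.7%, 41.1% in all). NDUFV2, UQCRFS1 and ATP5IF1 on the higher side and NDUFV1, CYC1 and ATP5F1B on the lower side had the same call in all 15 alternative settings, which include these. Of the 31 members not called, 14 stayed so in all.

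**Figure D3:**
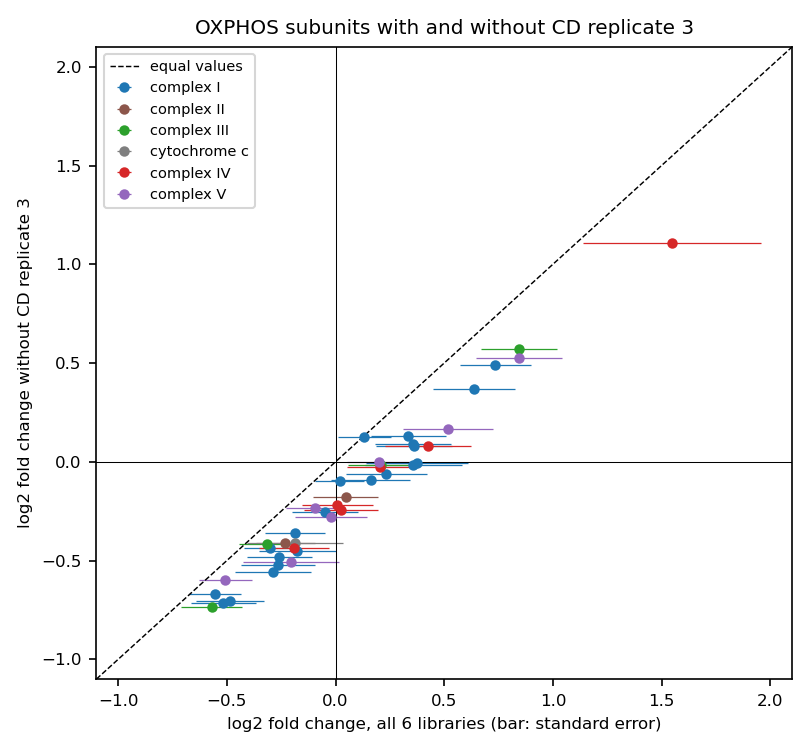
Log2 fold change of tested subunits (1 of the 42 is not drawn) with all 6 libraries (horizontal axis, with its standard error) against that without CD replicate 3 (vertical axis), coloured by complex; the dashed line marks equal values. Points below the line had a lower value without CD replicate 3, and the median of the 42 moved from 0.01 to −0.23.

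Other lists of short or mitochondrial mRNAs were set beside the subunits. Among 33 tested cytosolic ribosomal protein genes, CD replicate 3 was the highest CD library for 32, and the median deviations from the control were −0.15, −0.06 and 0.51 in CD replicates 1, 2 and 3. The exception was RPL3L, a muscle form with about 1 CPM in the control. Among 52 genes of mitochondrial ribosomal proteins, it was the highest for 51, and the median deviations were −0.37, −0.30 and 0.16. The part of the higher shares of unmapped reads, multimapped reads and reads on no feature of CD replicate 3 in this pattern was not tested. Of the mitochondrial ribosomal protein genes 15 fell and 2 rose, or 32.7% called beside 47.7% of all tested genes (22.9% lower). Without CD replicate 3 the lower calls were 28 (29.4% of all tested genes), and without CD replicate 2 they were 9 (20.7%). Among the genes that fell was MRPL12, a stalk protein, at 420, 434 and 424 CPM in the control and 151, 175 and 237 CPM under CD (−1.18, SE 0.16).

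**Figure D4:**
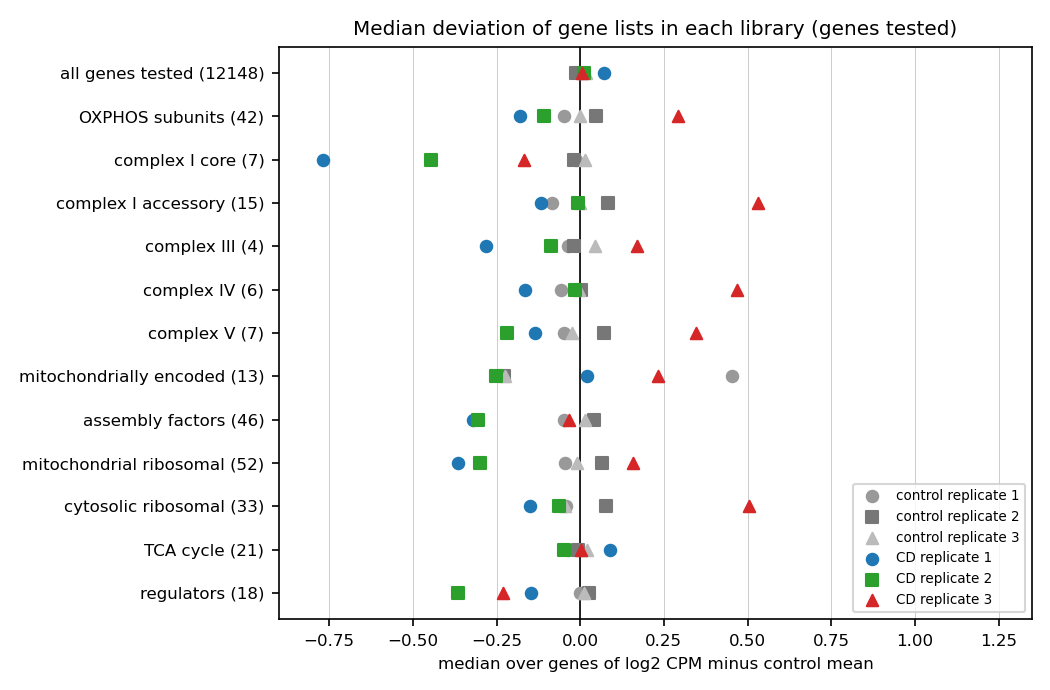
Median over the tested genes of a list (number in brackets) of log2 CPM minus the control mean, for each of the 6 libraries. In CD replicate 3 the subunits stood at 0.29, the cytosolic ribosomal proteins at 0.51 and all tested genes at 0.00, and the mitochondrially encoded subunits were highest in control replicate 1 (0.45).

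Outside the symbol rule, or paired with a name only through the description of the gene, were 6 further subunits, NDUFAB1, NDUFB3, NDUFB5, NDUFS6, COX7A1 and COX7A2L. None was called by edgeR or by DESeq2, and 1 had an unadjusted p under 0.05 in the edgeR test, beside 47.7%, 46.7% and 54.7% of all tested genes. In edgeR 2 were called lower without CD replicate 3 (29.4% of all tested genes) and 1 higher without CD replicate 1 (25.2%). All of them had their highest CD value in CD replicate 3. The 13 subunits encoded in mitochondrial DNA, which share the complexes with the members, were likewise not called by edgeR or DESeq2, and none had an unadjusted p under 0.05 in edgeR, beside the same shares of all tested genes. Without CD replicate 3, edgeR called 2 of the 13 lower (29.4% of all tested genes). Their median log2 fold change was −0.03 (−0.20 with CD replicate 3 left out, 0.05 with CD replicate 2 left out), and their summed level was 18003, 11430 and 11384 CPM in control replicates 1, 2 and 3 and 12422, 10715 and 16056 CPM in CD replicates 1, 2 and 3. The means were 13606 ± 3809 and 13064 ± 2728 CPM (SD, n = 3), so the spread within each group exceeded the difference between them.

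Assembly factors, which build the complexes without remaining in them, were called in both directions. Of 46 tested, 5 were higher, 14 lower and 27 not called, so that 41.3% were called, where 47.7% of all tested genes were (24.8% higher and 22.9% lower). Their log2 fold change was −0.23 at the median (−0.38 with CD replicate 3 left out, −0.17 with CD replicate 1 left out). BCS1L, the chaperone that inserts the Rieske protein UQCRFS1 into complex III, fell from 92.4, 92.7 and 98.8 CPM to 25.4, 27.2 and 31.6 CPM (−1.75, SE 0.13, FDR 3.93e-06). Its client UQCRFS1 was one of the subunits that rose. FOXRED1 of complex I fell from 39.4, 39.0 and 40.5 CPM to 15.2, 18.3 and 17.5 CPM (−1.22, SE 0.14), and NDUFAF4, also of complex I, from 6.09, 7.23 and 5.84 CPM to 3.26, 2.33 and 3.67 CPM (−1.05, SE 0.23). In all 3 genes the CD libraries lay below all control libraries.

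For complex IV, the copper chaperones SCO1 and SCO2 fell, SCO1 from 98.7, 101 and 106 CPM to 48.4, 51.7 and 60.1 CPM (−0.93, SE 0.12, FDR 0.000174). COA5, another assembly factor of complex IV, rose from 10.7, 10.99 and 9.15 CPM to 20.6, 20.2 and 33.9 CPM (1.28, SE 0.22, FDR 0.00107). SDHAF4 of complex II rose from 5.95, 5.57 and 5.79 CPM to 11.4, 9.82 and 16.1 CPM (1.103, SE 0.22, FDR 0.00210). Of the 4 assembly factors of complex V, FMC1 (0.88, SE 0.20) and TMEM70 (0.53, SE 0.19) rose, whereas 6 of the 15 of complex I, 2 of the 6 of complex III and 6 of the 17 of complex IV were lower, where 22.9% of all tested genes were. The lower calls of complex I numbered 9, 4 and 5 without CD replicates 3, 1 and 2. Those of complex III numbered 3, 1 and 1 in the same order, and those of complex IV 8, 6 and 5. Of all tested genes, 29.4%, 23.6% and 20.7% were lower in these fits. The call of TMEM70 was lost when control replicate 1, control replicate 3, CD replicate 2 or CD replicate 3 was left out (FDR 0.0518 to 0.156). Of the 19 calls, 3 higher and 9 lower held in all 15 alternative settings. Without CD replicate 3, 4 were higher and 22 lower, where 29.5% and 29.4% of all tested genes were.

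Among regulators of respiratory gene transcription and mitochondrial DNA, 18 were tested, 2 rose and 5 fell (38.9% called, beside 47.7% of all tested genes), and these 7 calls held in all 15 alternative settings. PPRC1 and PPARGC1B, coactivators of the PGC-1 family, fell. PPRC1 went from 118, 105 and 116 CPM to 51.2, 54.5 and 36.6 CPM (−1.25, SE 0.16, FDR 0.000133), and PPARGC1B from 12.3, 10.6 and 14.8 CPM to 6.58, 6.01 and 4.03 CPM (−1.18, SE 0.23, FDR 0.00188). PPARGC1A (PGC-1α), the best known of the family, had at most 0.144 CPM in any library and was not tested.

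NRF1, a transcription factor that binds the promoters of many subunit genes, fell from 22.8, 27.3 and 31.7 CPM to 14.3, 14.9 and 15.8 CPM (−0.86, SE 0.16, FDR 0.00164). POLRMT, the mitochondrial RNA polymerase, fell from 215, 202 and 216 CPM to 94.5, 119 and 106 CPM (−0.99, SE 0.12, FDR 0.000102), and POLG, the mitochondrial DNA polymerase, by 0.68 on the log2 scale (SE 0.12). The nuclear receptors ESRRA (0.48, SE 0.11, FDR 0.00462) and PPARD (0.59, SE 0.13, FDR 0.00360) rose. TFAM, which packages mitochondrial DNA, had 5.02, 7.73 and 5.18 CPM in the control and 5.41, 4.23 and 5.26 CPM under CD (−0.26, SE 0.23, FDR 0.370). In PPRC1, PPARGC1B, NRF1 and POLRMT all CD values lay below all control values, and CD replicate 3 was the highest CD library for NRF1, the middle one for POLRMT and the lowest for PPRC1 and PPARGC1B.

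**Figure D5:**
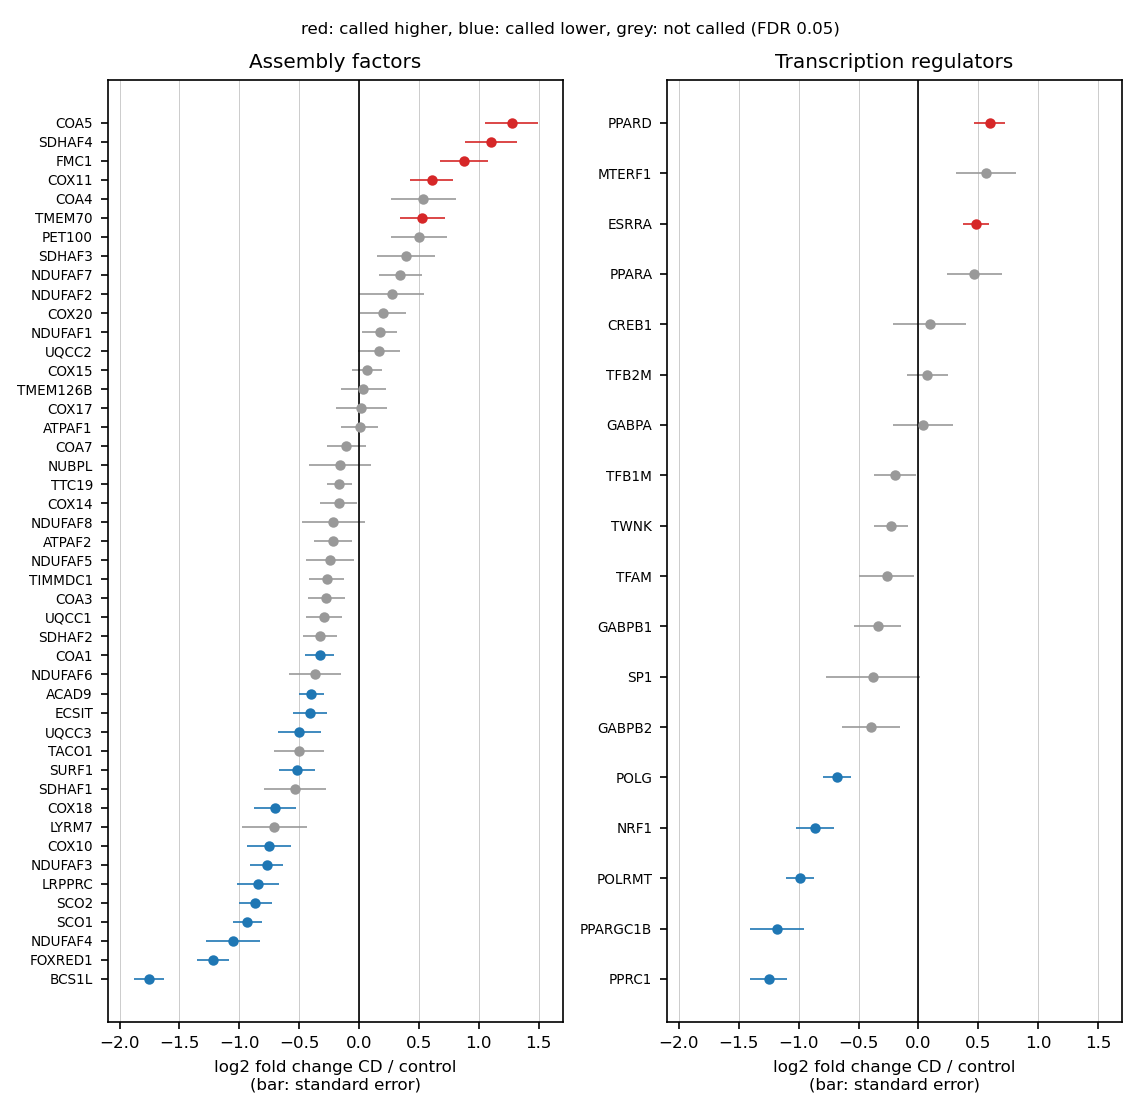
Log2 fold change of CD over control, with its standard error, for the 46 tested assembly factors (left) and the 18 tested regulators (right); red marks genes called higher, blue genes called lower and grey genes not called. The assembly factors ranged from −1.75 for BCS1L to 1.28 for COA5, and the regulators from −1.25 for PPRC1 to 0.59 for PPARD.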

How the data were processed

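RNA-seq libraries of untreated (control) and CD-treated Mv1Lu cells were grouped by the sample labels. Per the labels and the paper's methods, the authors isolated poly(A) mRNA, made Nextera XT libraries, trimmed reads with fastp 0.20.1, aligned them with STAR 2.7.2a to the mink assembly and used R 4.0.3 and DESeq2 1.30.1. The counting program and its use of strand are not given in the sources used here, so genes that overlap others or have near-identical copies (processed pseudogenes are common for these subunits) are uncertain. The authors deposited raw counts for 24526 genes, used here. Their normalized expression files were not used, because their values, matched by identifier, did not follow the counts. The Spearman correlations lay between −0.0067 and 3.4e-05. Rows that name no gene held between 29.3% and 47.2% of the reads and were left out.

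Counts were tested with edgeR 4.0.16 in R 4.3.3 (filterByExpr with a minimum count of 10 and a minimum total of 15, TMM, robust glmQLFit, glmQLFTest, condition as the only term), with Benjamini-Hochberg adjustment over 12148 genes. The SE was computed as the absolute log2 fold change over the square root of F. Members and lists were chosen with earlier results of these data known. Of the lists, 46 of 52 assembly factors and 21 of 22 regulators were found, some by the gene description. Genes named with full statistics are the called members, the highest and lowest of each complex, the core, the isoform pairs and the members most variable under CD, and of other lists the called genes with the largest changes. Alternatives were DESeq2 1.42.0, limma-voom (limma 3.58.1) with and without library weights, other scalings and filters, a replicate block, leaving out each library, an FDR of 0.01 and a test against a 1.5-fold change. The last 2 were applied to the numbers of calls only, which leaves 15 settings for single genes. The scripts were tested on simulated data. Some single genes counted in the totals are not reported here. Gene lengths were not used, so levels are not compared between genes.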

Additional observations from a re-analysis of the deposited data

How the results depend on the processing

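With all genes, 3016 were higher and 2784 lower, and at an FDR of 0.01 they numbered 2006 and 2036. The subunits called higher numbered 5 and those called lower 6. These became 3 and 3 at an FDR of 0.01, and 1 and 0 in the test of edgeR (glmTreat) against a 1.5-fold change (1303 and 1239 over all genes), where 3 and 0 had an unadjusted p under 0.05. Library weights in limma-voom gave 17 lower. Leaving out 1 library gave 3 to 9 higher (fewest without control replicate 3, most without CD replicate 1) and 4 to 19 lower (most without CD replicate 3). The calls over all tested genes moved as well. They numbered 2193 higher and 2158 lower without control replicate 3, 3062 and 2869 without CD replicate 1, and 3582 and 3575 without CD replicate 3. DESeq2 gave 5 and 6. The median log2 fold change of the members lay between −0.23 and 0.09 over all settings and changed sign among them, so it has no firm direction.

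The fit with the replicate block called 6 members higher and 6 lower, with ATP5PF added (FDR 0.0355). Over all 12148 tested genes it called 2772 higher and 2636 lower. Same-numbered libraries correlated at −0.024, −0.33 and −0.18 in their deviations from the group means, which gave no sign of pairing by number. With 3 libraries per group, centred on their own mean, these values cannot tell whether same-numbered libraries shared a culture or batch. Of 629 values of single subunits under the alternatives, 585 stayed on the same side of the threshold, 12 fell short of it and 32 newly passed it. Past the threshold 0 changed direction, but some values of subunits that were not called changed sign. NDUFS4, for example, went from 0.37 with all libraries to −0.0049 without CD replicate 3. Depth limits COX6B2 and the 4 untested isoforms. Levels of protein, respiration and mitochondrial mass were not measured here.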

Other observations

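The citric acid cycle and the pyruvate dehydrogenase complex feed the respiratory chain with electrons. Of their 21 tested genes, 5 were higher, 5 lower and 11 not called (47.7% of all tested genes were called, 24.8% higher and 22.9% lower, which is near the share in this list), with a median log2 fold change of 0.05 (−0.05 without CD replicate 3 and −0.04 without CD replicate 1). CD replicate 3 was the highest CD library for 6 of the 21 and the lowest for 7. MDH2, mitochondrial malate dehydrogenase, fell from 732, 735 and 770.2 CPM to 346, 410.1 and 474 CPM (−0.86, SE 0.13, FDR 0.000524), and all CD values lay below the controls. IDH3A, the catalytic subunit of isocitrate dehydrogenase, fell by 0.52 on the log2 scale (SE 0.13, FDR 0.00698).

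CS, citrate synthase, rose from 448, 430.1 and 456 CPM to 669, 678 and 614 CPM (0.56, SE 0.11, FDR 0.00204). PDK2, a kinase that inactivates pyruvate dehydrogenase, rose from 236, 205 and 214 CPM to 352, 410.4 and 392 CPM (0.82, SE 0.11, FDR 0.000272), and PDK4, a kinase with the same role, from 1.79, 3.25 and 1.76 CPM to 8.54, 7.30 and 3.75 CPM (1.54, SE 0.35, FDR 0.00492). PDHB and DLAT, subunits of pyruvate dehydrogenase, rose by 0.72 (SE 0.13) and 0.56 (SE 0.14). In PDK4 and DLAT, CD replicate 3 was the lowest CD library, the opposite of its place in the subunits. These calls of MDH2, IDH3A, CS, PDK2, PDK4, PDHB and DLAT held in all 15 alternative settings, whereas those of OGDH (−0.33, FDR 0.0464) and IDH3B (−0.31, FDR 0.0441) did not. Leaving out any control library or CD replicate 1 ended both calls (FDR 0.066 to 0.18 and 0.0919 to 0.148), and leaving out CD replicate 2 that of IDH3B (FDR 0.0783).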
